A study of Rattus norvegicus with 23 samples.

Results

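The nuclear and mitochondrial genes of the respiratory chain were followed in peripheral blood mononuclear cells of 21-day-old Wistar rat pups. Nuclear members were the probes whose name in the scanner files begins with Ndufa, Ndufb, Ndufc, Ndufs, Ndufv, Uqcr, Atp5 or Cox4 to Cox8, or is Sdha, Sdhb, Sdhc, Sdhd or Cycs. Mitochondrial members were all probes that the files place on the mitochondrial chromosome, chrM, of the rn4 rat assembly. The rule found 85 nuclear probes of 71 gene names and 49 chrM probes among 41012 probes. Of these, 82 nuclear probes of 69 genes and 48 chrM probes were well above background on at least 12 of 23 arrays, so that 130 of the 22198 probes kept on that rule were members. The 4 members not kept were Cox6c1, Cox6b (now called Cox6b1), 1 of the probes for Cox8h and the chrM probe AA955406, which were above background on 1, 2, 9 and 0 arrays. The members just inside the limit were a Cox8h probe with 13 arrays, Ndufs4 with 15 and an Ndufc2 probe with 17.

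Oxidative phosphorylation takes place in the inner mitochondrial membrane. Complexes I and II feed electrons from NADH and succinate to coenzyme Q, complex III passes them to cytochrome c, complex IV hands them to oxygen, and complex V, the ATP synthase, uses the resulting proton gradient to make ATP. Complexes I, III, IV and V are mosaics: most subunits are imported products of nuclear genes, and a few core subunits are encoded by mitochondrial DNA, which is transcribed as long polycistronic RNAs along with its own ribosomal and transfer RNAs. In blood, resting lymphocytes rely on this pathway for most of their ATP.

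The pups were the offspring of 11 dams fed standard chow freely (Control) and of 5 dams given a diet restricted by 20% in calories from the day after delivery until weaning (CR). The arrays comprised 6 Control and 5 CR males, and 6 females of each diet. The labels name no engineered allele, and all pups were killed at weaning in the fed state. The labels do not tie a pup to its dam, so litter mates may share a group, and p-values measure only the spread between pups and may be too small. Each array compared the RNA of 1 pup, in the red dye Cy5, with a pool of all samples, in the green dye Cy3, without dye swaps. Values below are log2 ratios of pup over pool after loess normalization within the array, and differences are CR minus Control unless another direction is named. The level of a probe was not set against that of another probe. Directions are those under loess. With each array centred on its median instead, the median difference of all probes moved to -0.20 in males and -0.018 in females. Over both sexes it was -0.11, and for male minus female -0.17. The nuclear genes moved further, to medians of -0.50 in males, -0.23 over both sexes and -0.52 for male minus female. The chrM medians became -0.30, -0.12 and -0.39. In females both stayed above 0, at 0.035 and 0.061. Positive differences of several members turned negative, Atp5e in males to -0.33.

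Between 20603 and 24076 probes per array were well above background, and at most 1 probe was saturated. The correlation of log2 ratios between arrays went as low as -0.24. On 4 arrays (Control female replicate 2, CR female replicates 2 and 5, and CR male replicate 4) the median absolute deviation of the log2 ratios was 0.052 to 0.086, against 0.15 to 0.25 on the others, and results that rest on these arrays are given without them below. Of the listed B cell markers, 10 were measured, all 10 were lower in CR pups averaged over the sexes, and 8 had an unadjusted p under 0.05. Of all kept probes, 49.2% were lower, and 5.02% were lower with such a p. The mean of those markers ranged from -0.12 to 0.61 in Control males, -0.66 to 0.11 in CR males, -0.086 to 0.75 in Control females and -0.27 to 0.25 in CR females. In bulk samples, fewer cells of a type and less RNA per cell cannot be told apart.

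The first comparison was between the diets, and no respiratory chain member was called. At an adjusted p under 0.05 (limma, Benjamini-Hochberg over 22198 probes), 0% of tested probes were called in either sex, over both together and for the difference of the diet effects, and members made no exception. With an unadjusted p under 0.05 in males, 0 of 69 nuclear genes were higher and 0 lower, where 3.47% of all probes were higher and 3.96% lower. In females 1 nuclear gene, Sdhc, was higher and 0 were lower, where 1.96% of all probes were higher and 2.91% lower. Averaged over the sexes 0 nuclear genes were higher and 0 lower, where 2.43% of all probes were higher and 5.02% lower. For the difference of the diet effects, male minus female, 0 nuclear genes were higher and 2, Sdhc and Atp5s, were lower, where 2.29% of all probes were higher and 2.59% lower. Over all 130 member probes, the female count was 0 without Control female replicate 1, without CR female replicate 2 or without the 4 arrays of narrow spread, and 8 without CR female replicate 1. A gene with several kept probes is counted by its brightest probe where genes are counted. Without CR male replicate 2, limma called 42 of all probes averaged over the sexes, and 0 of them were members.

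The chrM probes were also near the background. In males 3 of 48 (6.25%) were higher at an unadjusted p under 0.05, against 3.47% of all probes, and 0 were lower. Averaged over the sexes 3 were also higher, against 2.43% of all probes, and 0 were lower. In females and for the difference between the sexes 0 chrM probes passed in either direction. All 3 probes in males were in the forward orientation, and many chrM probes overlap or sit on 1 transcript, so they are not separate measurements. Counting all 130 member probes, 4 passed in males, but 0 without background subtraction, from the scanner software's ratio or without CR male replicate 5, 1 with outlier spots kept, and 8 with the slide as a block or without CR male replicate 4. The median difference of the 48 probes was 0.067 in males, 0.046 in females and 0.058 over both sexes, beside -0.0049, -0.00023 and 0.0014 over all kept probes. Leaving out each array moved the male median between 0.020 (without CR male replicate 5) and 0.13 (without CR male replicate 4). The female median turned to -0.028 without CR female replicate 1 and to -0.0026 without Control female replicate 4, and reached 0.10 without Control female replicate 5.

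As a set, the nuclear genes differed between diets by less than the spread between pups. The mean log2 ratio over the 69 nuclear genes ranged in Control males from -0.10 to 0.032 with a median of -0.042. In the 5 CR males it was -0.024, -0.045, -0.083, 0.0054 and -0.075. In Control females it ranged from -0.096 to 0.031 with a median of -0.015, and in CR females from -0.11 to 0.068 with a median of 0.00077. The groups overlapped over nearly their whole ranges. The difference was -0.010 ± 0.031 (SE) in males, 0.014 ± 0.029 in females and 0.0020 ± 0.021 over both sexes. It is a description, with no p, because the members were chosen with earlier results known.

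The mitochondrial set varied more widely between pups of a group. The pooled standard deviation within groups was 0.17 for the mean over 48 chrM probes and 0.051 for the nuclear mean. Outlier spots were left out, so on some arrays the mitochondrial mean rests on fewer probes. With outlier spots kept, its standard deviation was also 0.17. The mitochondrial mean ranged from 0.020 to 0.39 in Control males with a median of 0.094, and it was 0.18, 0.14, 0.38, 0.059 and 0.43 in the CR males. In Control females it ranged from -0.11 to 0.33 with a median of 0.037, and in CR females from -0.086 to 0.39 with a median of 0.13. High and low pups were found in every group. The difference was 0.097 ± 0.10 (SE) in males, 0.043 ± 0.096 in females and 0.070 ± 0.070 over both sexes. The forward probes differed by 0.11 ± 0.14 in males, 0.00069 ± 0.14 in females and 0.056 ± 0.10 over both. For the reverse probes these values were 0.056 ± 0.073, 0.098 ± 0.070 and 0.077 ± 0.051. The reverse probes include BI395793, which differed by 1.00 in males and 0.59 in females and weighs heavily on these means. The median difference over the 16 reverse probes was 0.016 in males, 0.088 in females and 0.048 over both. The mitochondrial difference minus the nuclear difference was 0.11 ± 0.13 in males, 0.028 ± 0.12 in females and 0.068 ± 0.087 over both sexes, each within 1 SE of 0. Without the 4 arrays of narrow spread the sex-averaged difference was 0.12 ± 0.078 for the mitochondrial set and -0.016 for the nuclear set.

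**Figure D1:**
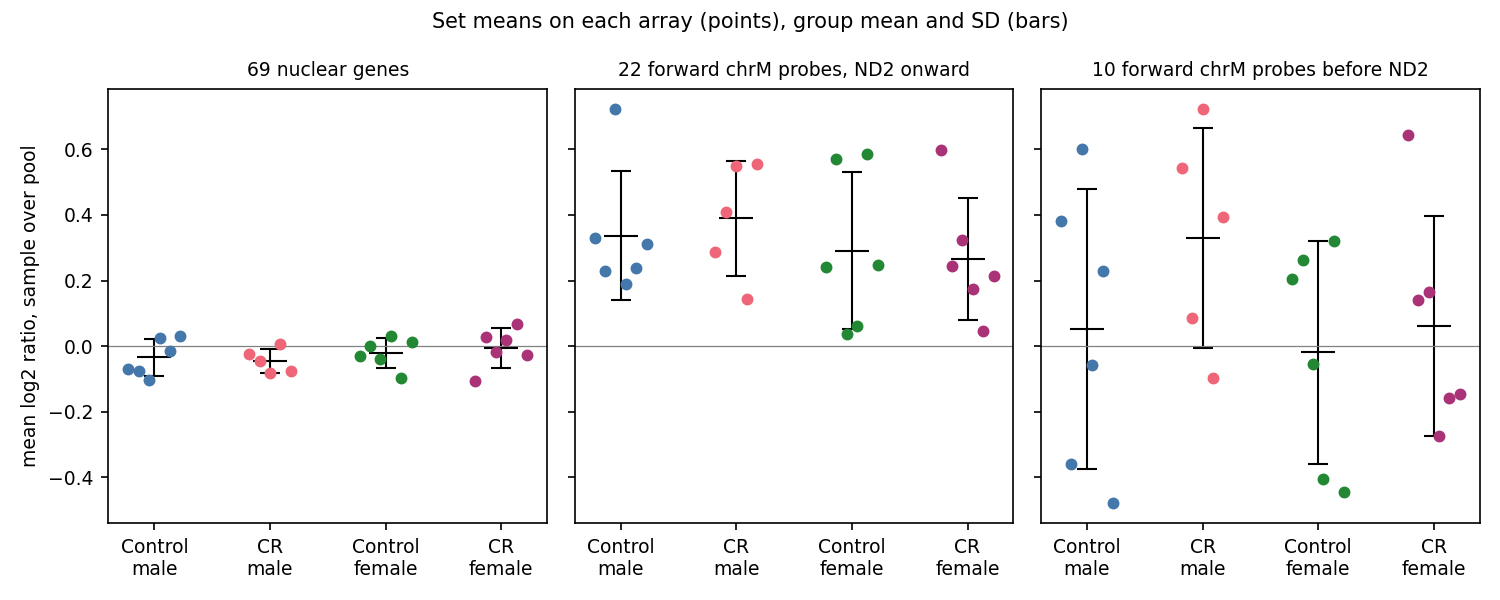
Mean log2 ratio (sample over pool, vertical axis) of the 69 nuclear genes, the 22 forward chrM probes from ND2 onward and the 10 forward chrM probes before ND2, with 1 point per array and the group mean and SD as bars. Nuclear means stay between -0.11 and 0.068, while the probes before ND2 spread from -0.48 to 0.72 with all 4 groups overlapping. Outlier spots are left out, so on some arrays a chrM mean rests on fewer probes.

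Slide and scan coincided, so the 6 slides were the only batch in the files, and both diets were compared within each slide that held them. In males the nuclear difference was above 0 on 1 of 4 such slides (range -0.11 to 0.078) and the mitochondrial difference on 3 of 4 (-0.22 to 0.39). In females the nuclear difference was above 0 on 3 of 6 slides (-0.075 to 0.16) and the mitochondrial difference on 4 of 6 (-0.36 to 0.28). The difference therefore did not keep 1 direction across slides in either set.

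Complex I, the entry point for electrons from NADH, had 30 genes measured. In males 22 of the 30 were lower in CR pups with a median difference of -0.027, and in females 22 of the 30 were higher with a median of 0.046. The difference of the diet effects, male minus female, was below 0 for 24 of 30 genes, where 50.7% of all probes were. Its median over the 30 genes was -0.068 against -0.0022 over all probes. When each array was left out in turn that median stayed between -0.094 and -0.046, and it was -0.058 without the 4 arrays of narrow spread. Under the other processing alternatives it lay between -0.10 and -0.050, apart from -0.54 under median centring, where the median of all probes was -0.17. None of the 30 was called, and the genes share arrays and vary together, so the count is a description. The lean was not particular to complex I. Outside the rule, the difference of the diet effects was below 0 for 7 of 9 chain genes, 17 of 22 assembly factors and 46 of 66 mitochondrial ribosome genes. For genes of mitochondrial DNA expression it was 14 of 25, for regulators 6 of 13, for the citric acid cycle 7 of 17 and for carriers 12 of 25.

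Ndufs8 and Ndufs3, core subunits of the complex, were among these genes, Ndufs8 holding iron-sulfur clusters. Ndufs8 (rn4 chr1:206435899-206436397) ranged from 0.036 to 0.27 in Control males with a median of 0.14, and was -0.057, 0.027, -0.072, 0.18 and 0.13 in the CR males. In females it ranged from 0.13 to 0.27 in Controls and from 0.0053 to 0.39 in CR pups. The 3 lowest CR males lay below every Control male and the others among them. Its difference was -0.11 ± 0.066 (SE) in males (limma adjusted p = 0.742) and 0.047 ± 0.063 in females (adjusted p = 0.988). For Ndufs3 (chr3:75258789-75258848), also a core subunit, the range was -0.021 to 0.10 in Control females and -0.0021 to 0.23 in CR females, which overlapped. Its difference was 0.087 ± 0.044 in females (adjusted p = 0.983) and -0.033 ± 0.046 in males (adjusted p = 0.903).

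Ndufv1, the flavoprotein subunit that binds NADH and FMN, had the smallest p of complex I averaged over the sexes. Its probe (chr1:206589998-206590021) ranged from -0.17 to 0.28 with a median of 0.17 in Control males, and was -0.29, 0.25, -0.16, 0.11 and -0.0095 in the CR males. In Control females it ranged from 0.16 to 0.55 with a median of 0.36, and in CR females from 0.094 to 0.34 with a median of 0.16. CR values lay toward the lower end in both sexes, and the ranges overlapped. The difference was -0.13 ± 0.064 (limma adjusted p = 0.692), with nearly the same size in males (-0.13 ± 0.092) and females (-0.12 ± 0.088).

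Further complex I members differed as follows. Ndufb6, an accessory subunit of the membrane arm (chr5:57679180-57685878), was 0.25, -0.18, 0.19, 0.063 and 0.042 in the CR males and -0.19 to 0.017 in Control males. In 4 of the 5 CR males it stood above every Control male. Its difference was 0.11 ± 0.068 in males (limma adjusted p = 0.730) and 0.082 ± 0.047 averaged over the sexes (adjusted p = 0.747). Ndufs1, the large iron-sulfur subunit, ranged from 0.079 to 0.17 in Control females and from -0.30 to 0.25 in CR females, a difference of -0.14 ± 0.092 (adjusted p = 0.986). Ndufv3l, named for the third flavoprotein subunit, had a difference of -0.15 ± 0.10 in females (adjusted p = 0.986). Ndufs7, another core iron-sulfur subunit, differed by 0.065 ± 0.080 in males and -0.086 ± 0.077 in females, a difference between the sexes of 0.15 ± 0.11 (adjusted p = 0.917).

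Ndufa9, which holds a structural NADPH, has 2 kept probes that disagree. The brighter probe (chr4:163221522-163223453) differed by 0.11 ± 0.068 in females (limma adjusted p = 0.983) and -0.057 ± 0.071 in males (adjusted p = 0.887). The dimmer one (chr4:163208492-163208551) differed by -0.13 ± 0.051 in males, with an unadjusted p of 0.0154 in limma's fit and an adjusted p of 0.631. Their deviations from group means correlated at -0.25 over 23 arrays. The assembly factor Ndufaf1, taken in by its prefix and not a subunit, differed by 0.011 ± 0.059 averaged over the sexes (adjusted p = 0.986).

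**Figure D2:**
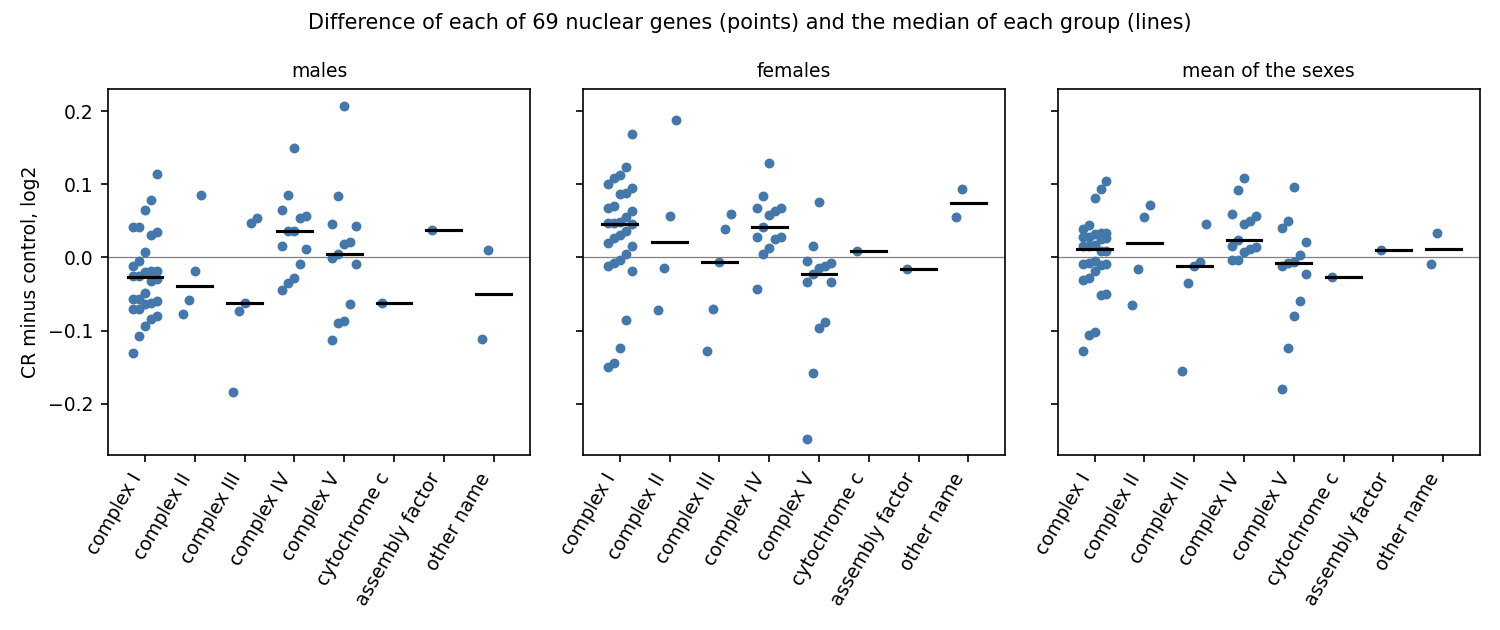
Difference between CR and Control pups (log2, vertical axis) of each of the 69 nuclear genes (points) by complex, with the median of each complex as a line, shown for each sex and for their average. Complex I has a median of -0.027 in males and 0.046 in females, while complex IV is above 0 in both (0.036 and 0.041) under loess, though at -0.038 in males from Cy5 alone.

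Complex II, succinate dehydrogenase, is the only complex made entirely from nuclear genes, and all 4 of its genes were measured. Sdhc, a membrane anchor that helps hold the haem (chr13:87014610-87014669), was -0.34, -0.19, -0.41, -0.012 and -0.087 in the CR males and ranged from -0.25 to 0.037 in Control males. In Control females it ranged from -0.48 to -0.13 with a median of -0.20, and in CR females from -0.23 to 0.20 with a median of -0.059. CR females were mostly above Control females, with overlap, while 2 CR males lay below all Control males. The difference was 0.19 ± 0.079 in females (unadjusted p = 0.0264, limma adjusted p = 0.983) and -0.077 ± 0.083 in males (adjusted p = 0.862). The difference between the sexes was -0.27 ± 0.11 (unadjusted p = 0.0303, limma adjusted p = 0.917).

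The other 3 subunits of complex II did not follow Sdhc. Sdha, the flavoprotein that oxidises succinate, differed by -0.065 ± 0.048 averaged over the sexes (limma adjusted p = 0.822) and by -0.059 in males and -0.072 in females. Sdhb, the iron-sulfur subunit, differed by -0.016 ± 0.050 (adjusted p = 0.972). Sdhd, the other membrane anchor, differed by 0.071 ± 0.050 (adjusted p = 0.807), with 0.086 in males and 0.057 in females.

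Complex III, cytochrome bc1, had 5 genes measured, and Uqcrc1, a core protein on its matrix side, had the smallest p. Uqcrc1 (chr8:113961444-113961503) was -0.50, 0.35, -0.40, 0.20 and 0.0089 in the CR males and ranged from -0.15 to 0.29 in Control males with a median of 0.17. In females it ranged from 0.14 to 0.42 in Controls and from -0.12 to 0.34 in CR pups. CR males held both the lowest and the highest value among the males. The difference was -0.16 ± 0.086 averaged over the sexes (limma adjusted p = 0.731). Cyc1, cytochrome c1, belongs to the same complex but not to the names of the rule, and differed by -0.14 ± 0.070 (adjusted p = 0.671). Cytochrome c itself, Cycs, has 3 probes, which differed by -0.076 to -0.027 averaged over the sexes. The brightest of them was at -0.027 ± 0.038 (adjusted p = 0.932).

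Complex IV, cytochrome c oxidase, had 13 of its 15 gene names measured. Averaged over the sexes 11 of the 13 were higher in CR pups, with a median difference of 0.024 under loess, but this median was -0.19 under median centring of the arrays, where the median of all probes itself was -0.11. In males the complex IV median was 0.036 and in females 0.041, or -0.011 without CR female replicate 5. The male median was -0.038 from Cy5 alone, -0.0053 with the slide as a block and -0.0020 in the deposited table. None was called. Cox7a2, a small accessory subunit (chr8:84813316-84813375), was 0.015, -0.19, -0.077, 0.11 and -0.32 in the CR males and ranged from -0.25 to -0.0042 in Control males. It ranged from -0.36 to 0.0032 in Control females and from -0.36 to 0.16 in CR females. The groups overlapped, and the difference was 0.092 ± 0.064 averaged over the sexes (limma adjusted p = 0.804).

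Several complex IV subunits come as isoforms of different tissues, and both isoforms of some pairs were measured. Cox4i1, the widespread form of subunit IV, differed by 0.045 ± 0.081 and Cox4i2, the form associated with lung and low oxygen, by 0.0082 ± 0.076 averaged over the sexes. Cox6a1, the liver type, differed by 0.024 ± 0.075 and Cox6a2, the heart and muscle type, by 0.11 ± 0.081, or 0.045 without CR female replicate 5, an array of narrow spread. In CR males Cox6a2 (chr1:187464932-187464991) was 0.39, 0.041, 0.18, 0.059 and 0.14, and in Control males -0.091 to 0.10. The 3 highest CR males lay above all Control males, and the difference in males was 0.15 ± 0.12 (limma adjusted p = 0.799). Cox6b2, the testis form of subunit VIb, differed by -0.0033 ± 0.056, Cox7a2l, which helps join complexes III and IV, by -0.0032 ± 0.047, and Cox8a by 0.050 ± 0.055. The adjusted p of these genes averaged over the sexes lay between 0.825 and 0.994.

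Complex V had 13 genes measured. In females 11 of the 13 were lower in CR pups, with a median of -0.023, and in males the median was 0.0047. The difference of the diet effects, male minus female, was above 0 for 10 of 13 genes, with a median of 0.050, but the median was -0.026 from Cy5 alone, -0.0024 in the deposited table and -0.50 under median centring. Atp5e, the epsilon subunit of the central stalk (chr14:83615848-83615908), was 0.32, -0.064, 0.071, -0.082 and -0.00067 in the CR males and ranged from -0.44 to -0.021 in Control males with a median of -0.13. In females it ranged from -0.33 to 0.14 in 5 Controls, 1 spot being left out, and from -0.24 to 0.42 in CR pups. In 3 CR males it was above every Control male, and the others lay among them. Its difference was 0.21 ± 0.11 in males (limma adjusted p = 0.704) and -0.014 ± 0.11 in females (adjusted p = 0.998).

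Atp5a1, the alpha subunit of the catalytic head (chr18:74739347-74739406), had the widest spread within groups of the nuclear probes, an SD of 0.30. It was 0.14, 0.49, -0.23, -0.10 and -0.32 in the CR males and ranged from -0.28 to 0.32 in Control males. It ranged from 0.16 to 0.38 in Control females and from -0.86 to 0.41 in CR females. CR pups of both sexes reached above and below the Controls. The difference was -0.25 ± 0.16 in females (limma adjusted p = 0.986) and -0.18 ± 0.12 averaged over the sexes (adjusted p = 0.784). The genes of the membrane ring, Atp5g1, Atp5g2 and Atp5g3, which encode the same mature subunit c, differed by -0.012 ± 0.055, 0.049 ± 0.052 and -0.0059 ± 0.038. Atp5s, a name that now stands for Dmac2l and not for a subunit of the synthase, was lower by -0.11 ± 0.065 in CR males and higher by 0.093 ± 0.062 in CR females. The difference between the sexes was -0.20 ± 0.089 (unadjusted p = 0.0315, limma adjusted p = 0.917).

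Males and females were then compared over both diets. Here 11 of all probes (0.0496%) were called by limma at an adjusted p under 0.05, and no member was among them. With an unadjusted p under 0.05, 6 nuclear genes (8.70% of 69) were lower in males, where 3.75% of all probes were, and 1 was higher, where 3.53% were. Over all 130 member probes, 9 passed in either direction, 4 from the scanner software's ratio, 15 without CR male replicate 2 and 16 without Control female replicate 5. Of the chrM probes, 1 was higher and 0 were lower. Of the 48, 42 (87.5%) had a value above 0, where 49.8% of all probes had, and they are not separate measurements. Their median was 0.083 under loess, 0.030 after scaling between arrays and -0.017 under median centring, where that of all probes was -0.027. The difference of the mitochondrial mean, males minus females, was 0.088 ± 0.070 (SE). The nuclear genes that were lower in males included Ndufv1, Ndufa8, Ndufs8 and Ndufb7 of complex I, Uqcrc1 of complex III and Atp5d of complex V.

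Ndufv1 was lower in males by 0.22 on the log2 scale: the difference was -0.22 ± 0.064 (unadjusted p = 0.00216, limma adjusted p = 0.674). Of the 6 Control females, 4 lay above every male of the Control group, and no CR female was below 0.094. Ndufa8, an accessory subunit of the intermembrane side (chr3:15149583-15149642), was -0.12, 0.043, -0.19, 0.048 and -0.13 in the CR males and -0.14 to 0.21 in Control males. In females it ranged from -0.0013 to 0.24 in Controls and from -0.024 to 0.20 in CR pups. Its difference, males minus females, was -0.14 ± 0.046 (limma adjusted p = 0.674). Atp5d, the delta subunit of the central stalk (chr7:11073061-11073120), was 0.21, 0.17, 0.15, 0.17 and 0.049 in the CR males, 0.016 to 0.22 in Control males, 0.11 to 0.62 in Control females and 0.071 to 0.46 in CR females. Only females exceeded 0.22, and the difference was -0.14 ± 0.054 (adjusted p = 0.674).

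Of the 30 complex I genes, 11 were at higher values in males. The smallest p among these were those of Ndufb4, Ndufb5 and Ndufa5, all accessory subunits, and only Ndufb4 had an unadjusted p under 0.05. Ndufb4 (chr11:64859470-64859529) was -0.59, -0.65, -0.50, -0.41 and -0.32 in the CR males, -0.64 to -0.30 in Control males, -0.82 to -0.50 in Control females and -0.71 to -0.47 in CR females. The difference was 0.12 ± 0.051 (limma adjusted p = 0.679). Ndufb5 differed by 0.090 ± 0.047 (adjusted p = 0.71) and Ndufa5 by 0.094 ± 0.052 (adjusted p = 0.735). Cyc1, outside the rule, differed by -0.19 ± 0.070 in the direction of Uqcrc1, which differed by -0.20 ± 0.086 (adjusted p = 0.674 and 0.679).

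The chrM probes fell into 32 in the forward orientation and 16 in the reverse one. In mammals the ribosomal RNA genes lie before ND1 and ND2 on the strand that also carries most messenger RNAs, and no annotation of rn4 was used here to place a probe in a gene, so probes carry the names of the files. The 10 forward probes before ND2 lie in 2 stretches, chrM:154-591 and chrM:1284-1613. All 10 were higher in CR males, with a median difference of 0.39, and 8 of 10 in CR females, with a median of 0.098. Under median centring the median in males was -0.18, where that of all probes was -0.20, so relative to all probes it was close to 0. The male median was 0.16 from Cy5 alone, 0.17 in the deposited table, 0.22 with array quality weights, 0.26 with outlier spots kept and 0.52 with the slide as a block. When each array was left out in turn the median under loess stayed between 0.23 and 0.52 in males, and between -0.070 (without CR female replicate 1) and 0.19 in females.

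Outlier spots were left out, so the per-array mean rests on those of the 10 probes with a value, and the probes behind it differ between arrays. This mean was 0.54, 0.084, 0.72, -0.097 and 0.39 in the CR males. It ranged from -0.48 to 0.60 in Control males with a median of 0.086. In females it ranged from -0.44 to 0.32 in Controls and from -0.27 to 0.64 in CR pups. Control males spanned nearly the whole range. The difference was 0.28 ± 0.22 (SE) in males and 0.18 ± 0.15 averaged over the sexes, against 0.053 ± 0.12 and 0.014 ± 0.085 for the 22 forward probes from ND2 onward.

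The probe named CF111195 at chrM:1289-1348 had the smallest p of the chrM probes averaged over the sexes. It was measured in 18 pups, since spots marked as outliers by the scanner software were left out. It was -0.073, 0.52, -0.17 and 0.17 in 4 CR males, and -0.61 to 0.017 in 4 Control males with a median of -0.40. In females it ranged from -0.65 to 0.28 in 5 Controls and from -0.42 to 0.36 in 5 CR pups. CR values were mostly the higher ones and overlapped with the Controls in both sexes. The difference was 0.37 ± 0.14 (unadjusted p = 0.0162, limma adjusted p = 0.576).

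A probe at chrM:1530-1589 carries the name Ttr in the files, the symbol of the blood carrier protein transthyretin, though its placement is mitochondrial. It was 0.43, 0.36, -0.17 and 0.48 in 4 CR males and -0.44 to 0.24 in 4 Control males. It ranged from -0.75 to 0.43 in 5 Control females and from -0.32 to 0.52 in 5 CR females, and 3 of the 4 CR males were above all Control males. The difference was 0.40 ± 0.15 (unadjusted p = 0.0191, limma adjusted p = 0.579). A reverse probe, S63167 at chrM:516-575, was the third with an unadjusted p under 0.05, with a difference of 0.13 ± 0.053 (limma adjusted p = 0.599). The chrM probes that were lower with the smallest p were CYTB at chrM:14300-14359, the cytochrome b gene of complex III, with -0.084 ± 0.10 (adjusted p = 0.915), and AA850922 at chrM:7869-7928, with -0.032 ± 0.040 (adjusted p = 0.916).

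**Figure D3:**
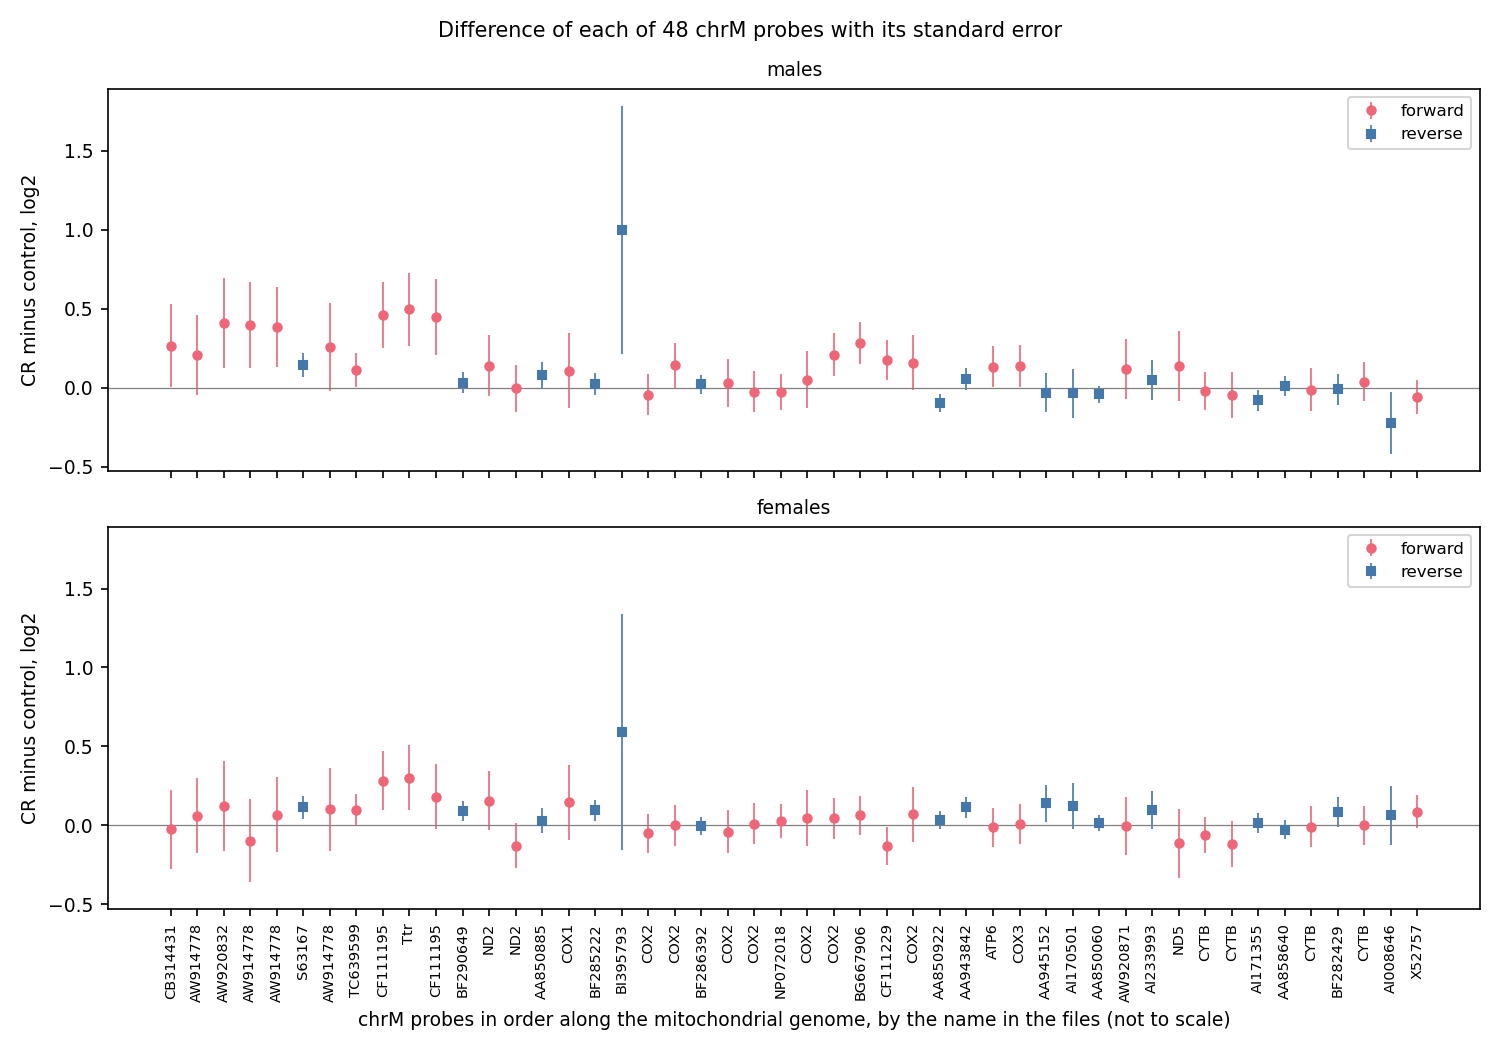
Difference between CR and Control pups (log2, vertical axis) of the 48 chrM probes in their order along the mitochondrial genome, in males and in females, with its standard error, circles for forward and squares for reverse probes. The forward probes at the left, before ND2, are above 0 in males (median 0.39), and BI395793 has a difference of 1.00 ± 0.79 in males.

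The sets also differed in how far their members varied between pups of a group. The median SD within groups was 0.26 over the 32 forward chrM probes, 0.12 over the 16 reverse ones, 0.12 over the 82 nuclear probes and 0.14 over all kept probes. All 32 forward probes were above the median of all probes, against 6 of 16 reverse and 21 of 82 nuclear ones. Nuclear members thus varied less than most probes, and forward chrM members more.

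Within groups, the arrays that were high for the nuclear set were mostly low for the mitochondrial set under loess. Over 23 arrays, as deviations from group means, the set means correlated at r = -0.75 (Spearman's rho -0.68) under loess. From Cy5 alone r was -0.051 (rho -0.25), and after scaling between arrays it was -0.18 (rho -0.33). Under median centring the sign turned and r was 0.72 (rho 0.62). The r under loess was -0.69 in Control males, -0.92 in CR males, -0.67 in Control females and -0.83 in CR females. It stayed between -0.81 and -0.69 when each array was left out, and was -0.82 without the 4 arrays of narrow spread and -0.68 without the 2 arrays furthest in the nuclear mean. The points share the normalization, the pool and the array. The number of probes above background per array correlated at -0.62 with the nuclear mean and at 0.63 with the forward chrM mean, and its part in the result was not tested.

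**Figure D4:**
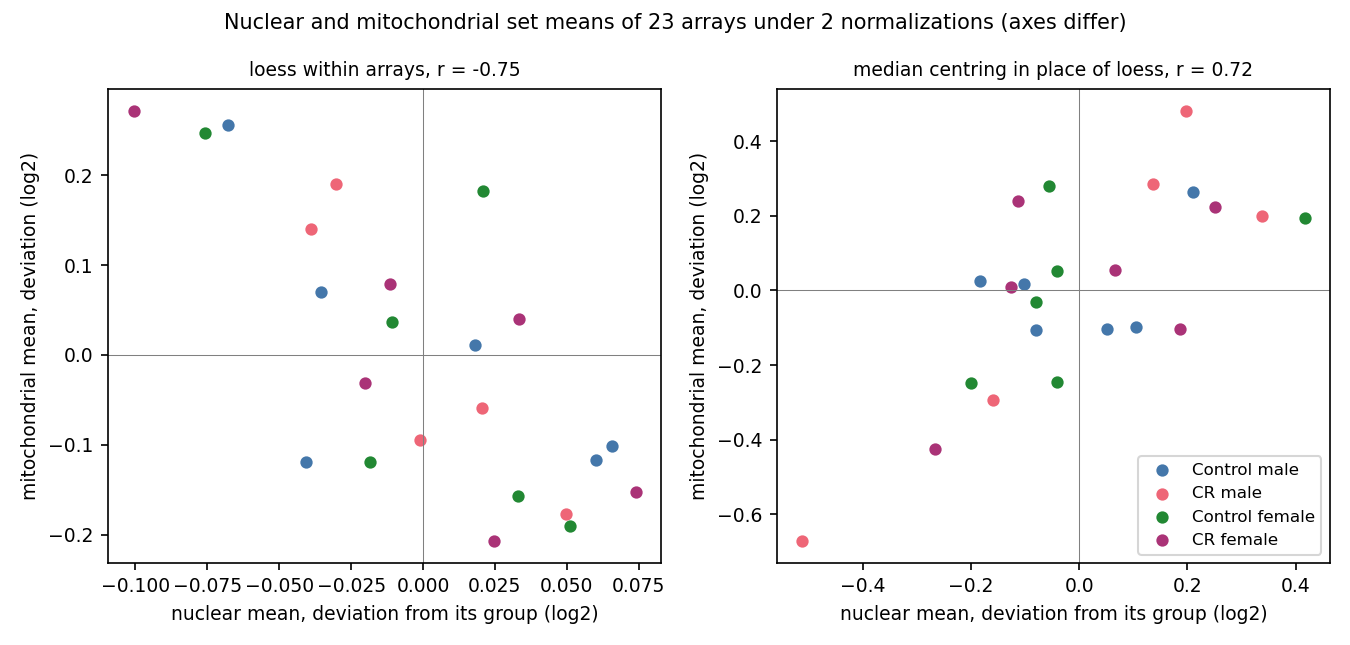
Mean log2 ratio of the mitochondrial set (vertical axis) against that of the nuclear set (horizontal axis) on 23 arrays, as deviations from the group means, colours marking the 4 groups, under loess (left) and under median centring (right), with different axes. The points fall under loess (r = -0.75) and rise under median centring (r = 0.72).

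The nuclear members followed the mean of their own set more often than other probes followed it. Of 82 nuclear probes, 71 correlated above 0 with the mean of the other nuclear genes (median r 0.38), and 28 had r above 0.5. Over all kept probes the median was -0.010, with 48.8% above 0 and 6.20% above 0.5. For the forward chrM probes, r with the mean of the other forward probes had a median of 0.78, and 29 of 32 were above 0.5, where 8.30% of all probes were. The reverse probes had a median r of 0.47 with the forward mean. The nuclear probes had a median r of -0.32 with the forward mean, and 14 of 82 were above 0.

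Ndufa11, Ndufa8 and Ndufb11, accessory subunits of complex I, followed the nuclear mean most closely, with r of 0.81, 0.78 and 0.76. With each gene taken by its brightest probe, the lowest were Ndufs4 at -0.54, Uqcrc2 at -0.40 and Cox4i2 at -0.31. Ndufs4, an accessory subunit needed for a stable NADH-binding module, was near the limit of detection, with 15 arrays above background. Uqcrc2, the other core protein of complex III, and Cox4i2 were kept with clearer signals. Cox4i2 correlated at 0.60 with the forward chrM mean, the highest of the nuclear probes.

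**Figure D5:**
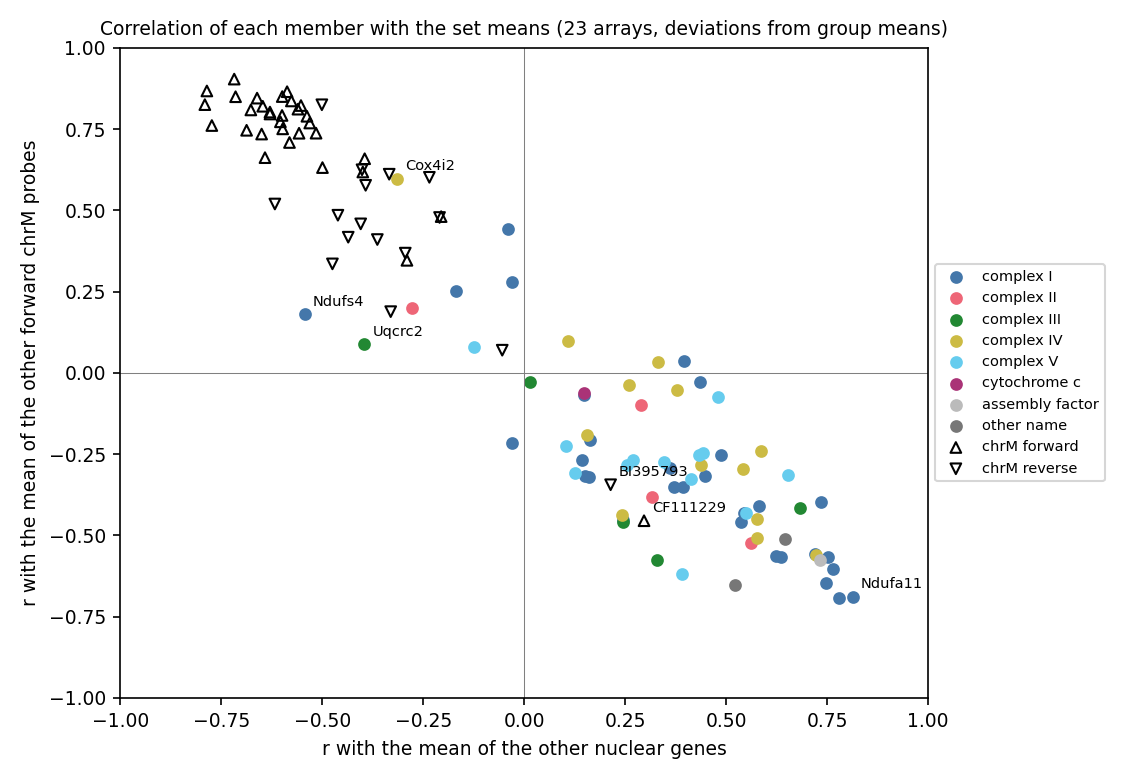
Correlation of each member with the mean of the other nuclear genes (horizontal axis) and with the mean of the other forward chrM probes (vertical axis), over 23 arrays as deviations from group means, with colours for the nuclear complexes and triangles for chrM probes. Nuclear members crowd at the lower right (median r 0.38 with the nuclear mean) and forward chrM probes at the upper left (median r 0.78 with the forward mean).

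Probes of 1 gene gave a check on these values. Of the 11 genes with several kept probes, 4 had all pairs above r = 0.5 (Ndufa2 0.85, Ndufs8 0.78, Atp5g2 0.74 and Atp5g3 0.73), and 4 had a pair at or under 0. The low ones were Cox5a at -0.31, Ndufa9 at -0.25, Cox8h at -0.092 and Ndufc2 at -0.090. In each of these 4 at least 1 probe was dim, with a mean Cy5 signal of 56.1 to 89.6 units against an array median of 55.6 to 65.8. Bright probes could also differ. The Cox5b pair, at 6081 and 6683 units, had r = 0.18, and the lowest Cycs pair had 0.25, with signals of 1288 to 2932 units.

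To show what may lie upstream of members that varied together, the stretch from 100 bases before the RefSeq start of transcription to the base before it (GRCr8 assembly) is printed for the 2 members that followed the nuclear mean most closely among those with an entry and for the 2 that followed it least. Capitals mark a match to a motif of NRF1 (CGCATGCG) or of ETS factors such as GABP (CCGGAAG), searched on both strands; the motif of YY1 (AAGATGGCG) was also searched and did not occur in these 4 windows. Ndufa11 (chr9:1637514-1637613, plus strand) and Ndufb11 (chrX:4126217-4126316, plus strand) are the high ones, and Uqcrc2 (chr1:184599140-184599239, plus strand) and Ndufs4 (chr2:47794915-47795014, minus strand) the low ones.
Ndufa11: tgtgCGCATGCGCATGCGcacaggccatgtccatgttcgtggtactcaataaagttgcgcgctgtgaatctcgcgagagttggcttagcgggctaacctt
Ndufb11: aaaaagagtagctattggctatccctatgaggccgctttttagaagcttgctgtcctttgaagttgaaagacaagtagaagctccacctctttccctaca
Uqcrc2: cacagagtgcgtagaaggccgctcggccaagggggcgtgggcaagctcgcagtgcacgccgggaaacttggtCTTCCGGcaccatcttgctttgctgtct
Ndufs4: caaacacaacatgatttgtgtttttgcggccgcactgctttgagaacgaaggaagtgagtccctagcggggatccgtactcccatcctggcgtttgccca

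Over the whole windows of 300 bases, from 250 before to 50 after the start, 61 of the 69 nuclear genes had an entry. The NRF1 motif occurred in 7 of them (11.5%), against 1.81% of 27457 promoters of the same length. The ETS motif occurred in 19 (31.1%, against 9.22%), and the YY1 motif in 9 (14.8%, against 1.93%). Cox4nb and Ndufaf1, which are not subunits, were among the 19. The median r with the nuclear mean was 0.48 for genes with the NRF1 motif, 0.52 with the ETS motif and 0.49 with the YY1 motif, beside 0.37, 0.31 and 0.37 for the genes without each. Ndufb11, with a high r, held none of the 3, and Ndufs4, with the lowest r, held the YY1 motif outside the printed stretch. A match is a description and not a binding site.

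Genes that belong to the chain or serve it, but fall outside the rule, were read from lists. Over all kept probes, averaged over the sexes, 50.8% were higher and 49.2% lower, with a median of 0.0014. With an unadjusted p under 0.05, 2.43% were higher and 5.02% lower. Of 9 measured chain genes outside the rule, 6 were higher and 3 lower in CR pups averaged over the sexes, and 0 had an unadjusted p under 0.05. Of 22 assembly factors, 10 were higher and 12 lower, and only Atpaf2, which helps build the head of ATP synthase, had an unadjusted p under 0.05 (-0.14, limma adjusted p = 0.577). Of 25 genes that copy, transcribe or process mitochondrial DNA and its RNA, 21 were higher and 4 lower with a median of 0.028, and only Polg, the mitochondrial DNA polymerase, had an unadjusted p under 0.05 (-0.16, adjusted p = 0.663). Of 13 nuclear regulators, 9 were higher and 4 lower. Among them Gabpb2, a partner of the ETS factor GABPA, differed by 0.25 in males (unadjusted p = 0.000391, limma adjusted p = 0.628) from a dim probe above background on 14 arrays.

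The mitochondrial ribosome translates the mitochondrial messenger RNAs, and its proteins are nuclear products. Of its 66 measured genes, 40 were higher and 26 lower in CR pups averaged over the sexes, with a median of 0.012 and 1 gene past an unadjusted p of 0.05 in each direction. Its mean correlated at 0.83 with the nuclear chain mean and at -0.68 with the forward chrM mean, over the same 23 arrays. The 17 genes of the citric acid cycle and pyruvate dehydrogenase had a median of -0.022, beside 0.0014 over all kept probes. Of them 12 were lower, where 49.2% of all probes were. At an unadjusted p under 0.05, 2 were lower, where 5.02% of all probes were. Their mean differed by -0.047 ± 0.018 (SE), a description with no p. The 25 membrane carriers had a median of -0.036, with 17 lower. Slc25a1, the citrate carrier, differed by -0.16 (limma adjusted p = 0.629). No gene of these lists was called.

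Markers of blood cells moved with the sets to different degrees. The mean of 12 red cell precursor markers correlated at 0.56 with the nuclear mean and at -0.24 with the forward chrM mean, and ranged from -1.60 to -0.042 in Control males, -1.33 to 0.58 in CR males, -1.30 to 1.00 in Control females and -1.08 to 1.69 in CR females. The mean of the 10 B cell markers, which separated the diets most, correlated at 0.034 with the nuclear mean and at 0.0073 with the forward chrM mean. For the 8 natural killer cell markers the values were 0.36 and -0.23, for the 11 monocyte markers 0.28 and -0.28, for the 7 neutrophil markers 0.34 and -0.30, for the 8 platelet markers -0.21 and -0.00021, and for the 14 T cell markers -0.10 and -0.076. The part of cell makeup in the values of the members was not tested.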

How the data were processed

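RNA of 23 pups was hybridised to 2-colour Agilent rat arrays (design 014879), scanned with Feature Extraction 10.5.1.1 per the file headers. The members and gene lists were chosen with earlier results of these data known.

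The deposited scanner files give mean and background intensity per spot in each dye, on a linear scale, and a log10 ratio of red over green, per the file headers, together with flags for outlier, saturated and well-above-background spots. The authors' deposited value table holds log2 values for 22920 probes, which correlated with log2 Cy5 at 0.989 to 0.997 per array. Each of its columns has a median of 7.23, and how it was centred is not given in the sources used here; it holds 81 nuclear and 47 mitochondrial members.

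From the intensities, background was corrected by normexp with an offset of 50, arrays were normalized by loess with control spots at weight 0, outlier spots were left out (1.84% of member values), and spots of a probe were averaged (limma 3.58.1 in R 4.3.3). The values left out were not spread evenly over members, and gathered on some chrM probes and arrays. Probes well above background in Cy5 on at least 12 of 23 arrays were fitted with means of the 4 groups by lmFit and eBayes, with Benjamini-Hochberg adjustment over all 22198. The fit was tested on simulated data with 200 changed probes. A set mean takes 1 value per nuclear gene, the mean of its kept probes, and 1 value per chrM probe. Missing values were skipped, so a set mean can rest on fewer probes on some arrays. Named genes were, for each comparison, the 3 with the smallest p in each direction by the brightest probe, the smallest p of each complex averaged over the sexes, a list of succinate dehydrogenase, Cycs, Cox and Atp5g genes, and the genes with the highest and lowest correlation. Others were named after their values were seen: the second probe of Ndufa9, the Cycs probes, S63167, Ndufb7, Cyc1, Gabpb2 and genes named from the lists. The lists were chain genes outside the rule, assembly factors, mitochondrial DNA expression, regulators, mitochondrial ribosome, citric acid cycle, carriers and 7 sets of cell markers. The main alternatives were other normalizations, either dye alone, the deposited table, the slide or replicate number as a block, other filters, and leaving out each array. Promoters are from RefSeq (GRCr8).

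The number of arrays limits the precision. Probe sequences, proteins and an annotation of rn4 were not used here. A result for 1 gene of the lists is not reported here.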

Additional observations from a re-analysis of the deposited data

Results flagged for a closer look

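In 208 sets of values (a gene or set mean in 1 group of 5 or 6 pups), the gap between the highest or lowest pup and its nearest neighbour was compared with the range of the group, and 17 values stood apart. Chance does this in about 1 in 20 groups. No explanation was tested.

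CR female replicate 5, 1 of the 4 arrays of narrow spread, stood apart for 4 genes: Cox6a2 at 0.78, Atp5e at 0.42, Cox6a1 at 0.22 and Sdha at -0.38. Among the CR females, replicate 4 was also apart with Cox4i2 at -0.42, replicate 1 with Ndufaf1 at -0.46, and replicate 6 with Atp5g2 at 0.41 and Cyc1 at -0.16. In Control males, replicate 3 was apart with Ndufb6 at -0.19, and replicate 5 with Atp5a1 at -0.28 and Cyc1 at -0.16. In Control females, replicate 1 was apart with Sdhc at -0.48, the lowest value behind the Sdhc difference, and replicate 3 with Ndufb4 at -0.82 and Atpaf2 at -0.054.

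Of the mitochondrial sets, Control male replicate 3 was high over the forward probes from ND2 onward, at 0.72, where the next was 0.33. Over the reverse probes, Control male replicate 4 was low at -0.16, and CR female replicate 4 at -0.29, where the next were -0.054 and -0.057.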

How the results depend on the processing

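Adjusted calls of members were 0 in all 5 comparisons under every alternative, a design in which few probes of any kind were called, so this says little about stability. The dim members (Ndufs4, Cox8h, Ndufc2 and Ndufaf1), with Cy5 signals close to the array medians, and the outlier spots left out of the bright chrM probes limit the values most. The alternatives without the 4 arrays of narrow spread, from Cy3 alone and without the 2 arrays furthest in the nuclear mean were chosen after seeing the data.

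Of all probes, the sex comparison called 6 under median centring, 7 after scaling between arrays and 7 with the filter on all arrays, against 11. With the replicate block 1 probe was called in males, and with array quality weights 2 were called averaged over the sexes, against 0 each. Leaving out each array gave 0 to 42 calls averaged over the sexes and 0 to 4 in males, the most without CR male replicate 2. The labels do not say whether the replicate numbers pair the pups. Deviations of 33 same-numbered pairs correlated at 0.072 on average (-0.41 to 0.48), against -0.013 (-0.48 to 0.59) for 165 other pairs. With ranges this wide the values cannot decide whether pups were paired.

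Median centring moved the nuclear difference to -0.43 in males and -0.21 averaged over the sexes, and the mitochondrial one to -0.31 and -0.12, where the median of all probes was -0.20 in males and -0.11 for the mean. The correlation of the set means was -0.67 without background subtraction, 0.72 under median centring, -0.18 after scaling, -0.051 from Cy5 alone, -0.21 from Cy3 alone, -0.60 with the replicate block, -0.82 without the 4 arrays of narrow spread and -0.68 without the 2 furthest arrays. The cause was not tested.

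The differences that changed sign are averaged over the sexes unless another comparison is named. Under median centring they were Ndufb6 -0.16, Cox7a2 -0.15, Sdhd -0.17, Sdhc -0.17, Cox4i1 -0.20, Cox4i2 -0.19, Cox6a1 -0.22, Cox6a2 -0.022, Cox8a -0.19, Atp5g2 -0.19 and Mrpl44 -0.057, Atp5e -0.33, Ndufb6 -0.38 and Cox6a2 -0.050 in males, Atp5e -0.37, Ndufs7 -0.36 and Atp5d -0.36 for the difference of the diet effects and Ndufb4 -0.043, Ndufb5 -0.047 and Ndufa5 -0.054 for males minus females. After scaling between arrays they were Ndufv1 0.036, Uqcrc1 0.0037, the CYTB probe 0.071, Ndufaf1 -0.0024, Sdhb 0.017, Cox6a1 -0.030, Cox7a2l 0.018, Cox6b2 0.016 and Atp5g1 0.045. From Cy5 alone they were AA850922 0.028, Cox4i1 -0.045, Cox6a1 -0.044 and Cox7a2l 0.033, Atp5s 0.10 in males and Atp5e -0.039 for the difference of the diet effects. With the slide as a block they were Ndufaf1 -0.030, Cox4i2 -0.00022, Cox6a1 -0.019 and Cox6b2 0.0018. From the scanner software's ratio they were Ndufaf1 -0.091, Cox7a2l 0.014, Cox6b2 0.055 and Atp5g3 0.0026. Without background subtraction they were Cox7a2l 0.0056, Cox6b2 0.051 and Atp5g3 0.0030. In the deposited table they were Cox6a1 -0.0032, Cox6b2 0.066 and Atp5g1 0.0099. With the replicate block they were Cox6b2 0.015 and Atp5g1 0.0050. With array quality weights they were Cox6a1 -0.0063, Cox7a2l 0.013, Atp5g1 0.024 and Atp5g3 0.0023. Without the 4 arrays of narrow spread they were Ndufaf1 -0.011, Cox4i1 -0.019, Cox6a1 -0.025 and Cox6b2 0.0050. Leaving out each array gave Ndufaf1 -0.010 to 0.047, Sdhb -0.042 to 0.0048, Cox4i2 -0.023 to 0.051, Cox6a1 -0.022 to 0.054, Cox7a2l -0.018 to 0.017, Cox6b2 -0.026 to 0.021, Atp5g1 -0.040 to 0.0058 and Atp5g3 -0.026 to 0.0077.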

Other observations

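The reverse probe BI395793 (rn4 chrM:6933-6992) split the pups into separate ranges, each of which held pups of both sexes and both diets. On 12 arrays it lay between -2.32 and -1.11, and on 11 arrays between 0.48 and 1.47, with none in between. In the upper range were 5 males, 2 of them Control and 3 CR, and 6 females, 2 of them Control and 4 CR. The upper range thus held more CR than Control pups in each sex, and a link with diet was not tested. Its SD within groups was 1.41, and only 7 of the 22198 kept probes (0.0315%) varied more. Its deviations correlated at -0.34 with the forward chrM mean and at 0.21 with the nuclear mean over 23 arrays.

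The forward probe CF111229 (chrM:7537-7595) was the only forward probe that correlated below 0 with the other forward probes, at -0.46, although its neighbours BG667906 and COX2 lie in the same stretch, chrM:7059-7644. It ranged from -0.23 to 0.33 in Control males and from -0.060 to 0.76 in Control females. The forward probes on both sides of the start of ND2 otherwise moved together, with r = 0.71 between the mean of the 10 before it and the mean of the 22 from it onward.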
